A study of Homo sapiens with 4 samples.

Results

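The collagen genes were taken as the protein-coding genes of the hg19 annotation whose symbol is COL, a number, A and a number. This rule found 44 genes among 20162, and they held 69 of the 8070 m7G peaks of HL60 cells and 50 of the 8122 peaks of HL60/MX2 cells. A peak went to the gene with which it shared the largest stretch of exon on its own strand. In m7G MeRIP-seq, fragmented RNA is enriched with an antibody against N7-methylguanosine and sequenced beside input RNA, and regions with more reads after enrichment are called as peaks. Here the mRNA had been treated with a decapping enzyme before it was fragmented. HL60 is a human acute myeloid leukemia line, and HL60/MX2 is labelled as its drug-resistant counterpart. Both were untreated cultures in logarithmic growth, and each peak list came from 1 enriched library. The study's design asked how the m7G profiles of the sensitive and the resistant line compare. With 1 library for each line there was no replicate, so no test between the lines was made. The 95% intervals given with shares and rates are exact and cover counting error only.

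Collagens are the main structural proteins of the extracellular matrix. Their chains wind around each other in a rod in which glycine recurs at the third position of each repeat, so a chain is read as Gly-X-Y over and over. Much of the rod is encoded in many short exons whose lengths are multiples of the 9 bases of a Gly-X-Y unit, and in the fibrillar collagens most often 54 bases. Fibrillar collagens build the fibres of bone, skin and cartilage. Network collagens form sheets such as the basement membrane, and FACIT collagens decorate fibrils. Other collagens span the cell membrane or form anchoring fibrils and beaded filaments. Myeloid blood cells are not known as major collagen producers.

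The peaks below are shown because about as many collagen peaks lay in exons of Gly-X-Y repeats as elsewhere, and such exons make up 55.4% of all collagen exons. Each is the whole peak, read 5′ to 3′ on the strand of the gene from the hg19 genome, with the glycine codons of the reading frame in capitals, including codons cut by an exon edge. The peak of COL6A6, an alpha chain of collagen VI, is shown from both lists because it lay at the same place in both lines, in an exon outside the repeats. It lay at chr3:130305350-130305504 in HL60 and chr3:130305412-130305504 in HL60/MX2, on the plus strand.
COL6A6 exon 11, HL60: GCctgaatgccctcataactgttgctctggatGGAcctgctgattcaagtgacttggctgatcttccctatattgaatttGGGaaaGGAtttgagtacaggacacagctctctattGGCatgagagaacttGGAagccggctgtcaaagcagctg
COL6A6 exon 11, HL60/MX2: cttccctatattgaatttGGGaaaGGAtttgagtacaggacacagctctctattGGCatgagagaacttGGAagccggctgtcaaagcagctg

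The highest scoring HL60 peaks of at least 27 bases in Gly-X-Y exons came next. They lay at chr4:109810377-109810412 (minus strand) in COL25A1, chr13:111077081-111077159 and chr13:111132567-111132737 (plus) in COL4A2, chr3:130124975-130125019 (plus) in COL6A5, chr1:86227214-86227249 (minus) in COL24A1 and chrX:107435703-107435810 (minus) in COL4A6.
COL25A1 exon 17: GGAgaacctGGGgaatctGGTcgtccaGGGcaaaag
COL4A2 exon 5: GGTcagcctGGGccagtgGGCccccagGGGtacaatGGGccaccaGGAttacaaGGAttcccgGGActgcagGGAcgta
COL6A5 exon 16: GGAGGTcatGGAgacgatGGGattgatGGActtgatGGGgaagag
COL24A1 exon 54: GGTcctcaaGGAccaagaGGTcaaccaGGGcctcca
COL4A6 exon 18: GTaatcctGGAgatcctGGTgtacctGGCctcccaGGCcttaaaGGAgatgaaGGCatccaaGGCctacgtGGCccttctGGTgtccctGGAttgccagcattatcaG
COL4A2 exon 31: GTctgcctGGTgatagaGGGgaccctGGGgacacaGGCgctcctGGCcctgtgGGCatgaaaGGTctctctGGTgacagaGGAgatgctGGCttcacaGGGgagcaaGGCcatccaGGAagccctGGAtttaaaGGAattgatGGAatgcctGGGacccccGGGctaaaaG

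The same choice from the HL60/MX2 list gave chr3:48611921-48611983 (minus) in COL7A1, chr12:48381394-48381464 (minus) in COL2A1, chr1:40775610-40775641 (minus) in COL9A2, chr7:94040201-94040254 (plus) in COL1A2, chr9:116999261-116999314 (plus) in COL27A1 and chr9:137693800-137693853 (plus) in COL5A1.
COL7A1 exon 78: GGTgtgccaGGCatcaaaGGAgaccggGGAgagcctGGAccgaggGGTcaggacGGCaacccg
COL2A1 exon 19: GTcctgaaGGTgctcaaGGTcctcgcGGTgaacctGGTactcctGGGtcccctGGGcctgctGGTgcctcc
COL9A2 exon 16: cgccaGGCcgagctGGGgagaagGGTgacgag
COL1A2 exon 22: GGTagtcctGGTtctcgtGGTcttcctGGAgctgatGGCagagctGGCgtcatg
COL27A1 exon 18: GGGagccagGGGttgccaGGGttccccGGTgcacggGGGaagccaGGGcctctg
COL5A1 exon 38: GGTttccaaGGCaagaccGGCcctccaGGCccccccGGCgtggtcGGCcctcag

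In these 12 Gly-X-Y peaks nearly all glycine codons stand 9 bases apart, and 9 of the 12 peaks began and ended exactly at the ends of their exon. The authors had selected peaks that overlap protein-coding exons, and whether they cut peaks at exon ends is not stated. The COL1A2, COL27A1 and COL5A1 peaks are each a complete exon of 54 bases with 6 glycine codons. COL25A1 and COL24A1 show complete exons of 36 bases with 4 glycine codons.

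In HL60, 32 of the 44 collagen genes carried at least 1 peak (72.7%, 57.2 to 85.0), against 26.5% of all protein-coding genes. In HL60/MX2, 25 did so (56.8%, 41.0 to 71.7), against 28.6% of all genes. Collagen genes have a median of 48 exons and all genes 8, so genes with 30 or more exons were set beside them. Of all genes of that size, 59.1% (HL60) and 61.7% (HL60/MX2) carried a peak, against 30 (78.9%, 62.7 to 90.4) and 24 (63.2%, 46.0 to 78.2) of the 38 collagens among them. The interval of the collagens thus lay above the share of large genes in HL60 and held it in HL60/MX2. The match by size was loose, since these collagens had a median of 51 exons and the other large genes 37. With peaks of at least 50 bases alone, 23 of the 44 collagens had a peak in each line, and large genes were not counted under that limit.

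Per kb of exon, collagens held 0.169 peaks in HL60 (0.131 to 0.214) and 0.122 in HL60/MX2 (0.0909 to 0.161). All protein-coding genes together held 0.0694 and 0.0699 peaks per kb, and the other genes with 30 or more exons 0.0999 and 0.0889. Counted per 100 exons of the longest coding transcript, collagens stood at 3.40 (HL60) and 2.47 (HL60/MX2) peaks, below the 3.72 and 3.75 of all genes. The collagens with 30 or more exons held 3.34 and 2.52, where the other genes of that size held 3.17 and 2.81. Per exon, the large collagens therefore lay slightly above other large genes in HL60 and slightly below them in HL60/MX2, and neither difference was tested.

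Collagens with a peak often had several, as did other genes with many exons. A single peak was found in 31.2% of the collagen genes with a peak in HL60 and in 36% of those in HL60/MX2, against 70.7% and 74.9% among all genes with a peak. Among genes with 30 or more exons, 33.3% of the collagens with a peak had a single one in each line, and 39.8% and 49.2% of the other genes did. Genes with a peak carried on average 2.17 and 2.04 peaks among these collagens, and 2.35 and 1.97 among the other genes of that size. In HL60, 16 collagen genes had 2 peaks each, and 6 had 3 or more. Among the collagens of HL60/MX2, 8 had 2 peaks and 8 had 3 or more.

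**Figure D1:**
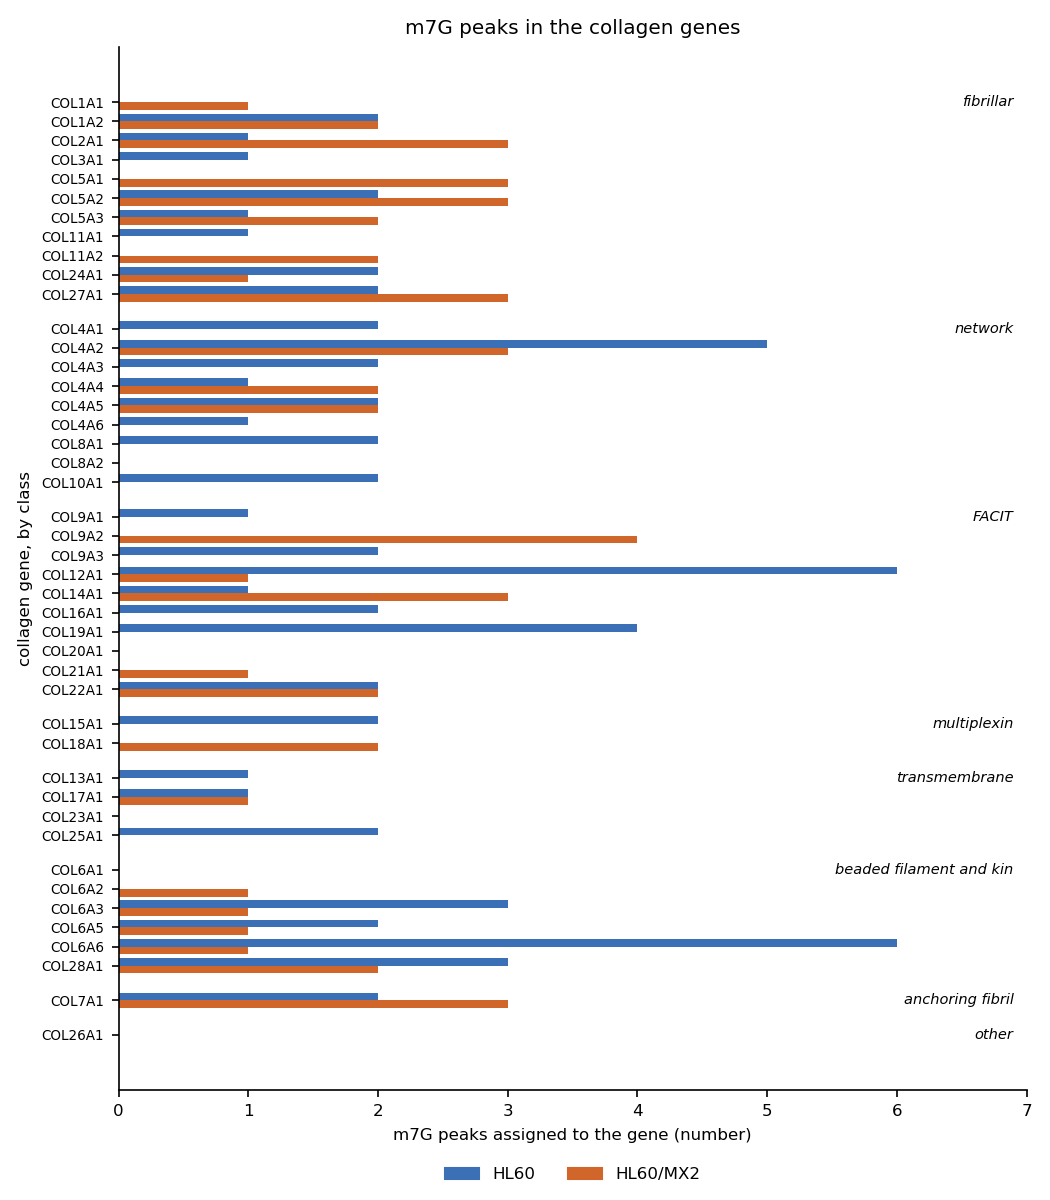
Number of m7G peaks (horizontal axis) in each of the 44 collagen genes (vertical axis, grouped by class), with blue bars for HL60 and orange bars for HL60/MX2, 1 library each. COL6A6 and COL12A1 reach 6 peaks in HL60 with 1 in HL60/MX2, COL9A2 has 4 in HL60/MX2 and none in HL60, and 5 genes have no bar.

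COL6A6 and COL12A1 carried the most peaks of any collagen in HL60, 6 each, and each had 1 in HL60/MX2. The COL6A6 peaks fell in exon 4 (score 286), exon 6 (265), exon 11 (429), exon 22 (475), exon 25 (59.7) and the 3′ UTR of the last exon (347). The score is the authors' value for a peak, on a scale the sources do not name, and it was compared only within a list, whose median was 197 in HL60 and 259.7 in HL60/MX2. So 5 of the 6 COL6A6 peaks stood above the middle of their list. COL12A1 encodes a FACIT chain that is mostly fibronectin type III domains. None of its 6 HL60 peaks lay in a Gly-X-Y exon, and they spread from exon 2 (score 394) over exons 22, 33, 50 and 62 (107 to 225) to the last exon (101). Its HL60/MX2 peak, in exon 52, scored 101.

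COL4A2, which pairs with COL4A1 in nearly every basement membrane, had 5 peaks in the HL60 list and 3 in the other. In HL60 the peaks of exon 1, in the 5′ UTR, and of exon 5 had the same score of 779, and those of exons 31, 8 and 25 scored 530, 319 and 178. In HL60/MX2 the peaks were in exons 4, 22 and 40, with scores of 504, 260 and 112. No exon carried a peak in both lines, although exons 4 and 5 are neighbours. COL19A1, a FACIT gene, had 4 peaks in HL60 (scores 74.8, 85.1, 95.9 and 548) and none in HL60/MX2. The highest of them was a single base of exon 35.

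COL6A3, the large alpha chain of collagen VI, had HL60 peaks in exons 15, 19 and 26 (352, 398 and 150) and an HL60/MX2 peak in exon 43 (414). COL28A1, a relative of collagen VI, had HL60 peaks in exons 8, 21 and 30 (55.8, 94.8 and 211). Its HL60/MX2 peaks were in exon 9 (130) and in 313 bases outside its longest coding transcript (414).

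COL9A2, a chain of the cartilage FACIT collagen IX, had the most peaks of any collagen in HL60/MX2. Its peaks were in exons 16, 24 and 26 (968, 525 and 231) and in the 3′ UTR (246), and HL60 had none there. The other chains of collagen IX showed the opposite, with 1 peak in COL9A1 (283) and 2 in COL9A3 (51.4 and 225) in HL60 and none in HL60/MX2.

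At least 3 peaks in HL60/MX2 were also found in COL2A1, COL5A1, COL5A2, COL27A1, COL7A1 and COL14A1. COL2A1, the chain of cartilage fibrils, had 3 (1321, 559 and 195) against 1 in HL60 (71.8). COL5A1 and COL5A2 encode chains of collagen V, which starts the fibrils of collagen I. COL5A1 had 3 HL60/MX2 peaks (598, 579 and 223) and none in HL60. COL5A2 had 3 (861, 542 and 202), the highest in its first exon, against 2 low ones in HL60 (107 and 60.3). COL27A1, a cartilage fibrillar collagen, had 3 (607, 223 and 174) against 2 (222 and 162). COL5A3, another chain of collagen V, had 2 HL60/MX2 peaks (423 and 232) and 1 in HL60 (107).

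COL7A1, which forms the anchoring fibrils that hold the epidermis to the dermis, has the most exons of the collagens, 118. It had HL60/MX2 peaks in exons 16, 78 and 102 (62.5, 1690 and 347) and HL60 peaks in exons 67 and 86 (421 and 85.1). COL14A1, a FACIT collagen on fibril surfaces, had HL60/MX2 peaks in exons 27, 37 and 44 (439, 219 and 362). Its HL60 peak, also in exon 27, scored 55.9.

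Both lines had a peak in 18 collagen genes, which was 46.2% of the 39 with a peak in either, and 27.7% of all genes with a peak had one in both. The 18 collagen genes were COL1A2, COL2A1, COL4A2, COL4A4, COL4A5, COL5A2, COL5A3, COL6A3, COL6A5, COL6A6, COL7A1, COL12A1, COL14A1, COL17A1, COL22A1, COL24A1, COL27A1 and COL28A1. Collagens have a median of 48 exons and all genes 8, and more collagens had a peak in each list. No such share was taken for genes with as many exons, so the 2 percentages do not show closer agreement between the lines in collagens. HL60 had a peak in 14 collagens (35.9% of the 39) where HL60/MX2 had none. They were COL3A1, COL4A1, COL4A3, COL4A6, COL8A1, COL9A1, COL9A3, COL10A1, COL11A1, COL13A1, COL15A1, COL16A1, COL19A1 and COL25A1. HL60/MX2 alone had a peak in the 7 genes COL1A1, COL5A1, COL6A2, COL9A2, COL11A2, COL18A1 and COL21A1. COL6A1, COL8A2, COL20A1, COL23A1 and COL26A1 had none in either list. A gene without a listed peak may still carry m7G, since expression and depth were not known here.

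In collagens I and IV the lists differed between chains of the same collagen type. COL1A2 had 2 peaks in each line, whereas COL1A1 had 1, in the 3′ UTR, in HL60/MX2 alone (330). Collagen IV genes lie as pairs read in opposite directions from a common region. In each pair only 1 member had a peak in HL60/MX2, with 3, 2 and 2 peaks in COL4A2, COL4A4 and COL4A5 and none in COL4A1, COL4A3 and COL4A6. In HL60 all 6 had a peak, 5, 1 and 2 in the former and 2, 2 and 1 in the latter. These counts are small. Of the collagens with a peak, 35.9% had one in HL60 alone and 17.9% in HL60/MX2 alone, so no pattern is drawn from these chains.

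The 11 fibrillar collagens held 12 HL60 peaks in 8 genes and 20 HL60/MX2 peaks in 9 genes. They made up 17.4% of the collagen peaks in HL60 (9.32 to 28.4) and 40% in HL60/MX2 (26.4 to 54.8), while holding 24.1% of collagen exon bases and 32.0% of collagen exons. The 33 other collagens held 57 peaks in 24 genes and 30 peaks in 16 genes. Per kb of exon, the fibrillar genes stood at 0.662 times the others in HL60 (exact interval 0.323 to 1.25) and at 2.10 times in HL60/MX2 (1.13 to 3.82). Per exon, a measure added after seeing the data, the ratios were 0.463 (0.226 to 0.876) and 1.52 (0.810 to 2.79). The side of 1 was the same on both measures, but which line's interval left out 1 changed with the measure.

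Of the remaining classes, those with more than 2 genes had fewer peaks in HL60/MX2. The 9 network collagens held 17 peaks in 8 genes in HL60 and 7 in 3 genes in HL60/MX2. The 10 FACIT collagens held 18 in 7 genes and 11 in 5 genes. The 6 genes of collagen VI and its kin held 14 in 4 genes, of which COL6A6 had 6, and 6 in 5 genes. The 4 transmembrane collagens held 4 and 1, and the 2 multiplexins 2 and 2. COL7A1 held 2 and 3, and COL26A1 none. GC content also differed between the lists. The mean over peaks was 54.1% for collagens in HL60 and 58.1% in HL60/MX2, against 46.0% and 49.4% for the whole lists. Fibrillar exons were richer in GC (56.3%) than those of the other collagens (53.3%). Within exon classes the values were close, 63.3% and 62.4% in exons of Gly-X-Y repeats, 46.4% and 47.2% in first and last exons and 54.3% and 54.7% in the rest. The part of GC content in the counts was not tested.

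Exons of the longest coding transcript were then sorted by what they encode. An internal exon counted as a triple-helix exon when at least 90% of the codons at every 3rd place were glycine. Codons were read in the annotated reading frame, and the starting codon that gave the highest glycine share was taken. There were 1123 such exons, 55.4% of collagen exons and 25.3% of their bases, with a median of 54 bases. Of these, 459 (40.9%) were exactly 54 bases long and 95.5% had a length that is a multiple of 9. The first and last exons, called end exons, were 88, with a median of 589 bases and 34.4% of the bases. The remaining 816 internal exons included those of the globular domains and those whose glycine repeats are interrupted, as in collagen IV.

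Triple-helix exons held 34 of the 67 HL60 peaks that lay on these transcripts (50.7%, 38.2 to 63.2) and 23 of the 48 HL60/MX2 peaks (47.9%, 33.3 to 62.8). These shares lay near the exons' share by number and above their share by bases. Per kb, triple-helix exons had 0.488 and 0.330 peaks, other internal exons 0.235 and 0.171, and end exons 0.0740 and 0.0634. Per exon the order was different. In HL60 a peak lay in 3.03% of triple-helix exons (2.11 to 4.21), 3.19% of other internal exons (2.09 to 4.63) and 7.95% of end exons (3.26 to 15.7). The values in HL60/MX2 were 2.05% (1.30 to 3.06), 2.33% (1.41 to 3.61) and 6.82% (2.54 to 14.3).

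Internal exons of other genes were set beside triple-helix exons under the same upper limit of 108 bases, though not at like lengths. Of those up to 108 bases, 32406 exons of other genes but only 161 triple-helix exons had 82 bases or more. Among triple-helix exons of up to 108 bases, 32 of 1079 had a peak in HL60 (2.97%, 2.04 to 4.16) and 22 in HL60/MX2 (2.04%, 1.28 to 3.07). Among 65289 internal exons of that size in other genes, 2.02% (1.91 to 2.13) and 1.91% (1.81 to 2.02) did. The HL60/MX2 intervals overlapped widely and the HL60 ones at their edges. At this number of peaks, no difference between short collagen exons and other short exons was detectable in HL60/MX2. By length, HL60 peaks lay in 6 of the 162 triple-helix exons of up to 36 bases, and HL60/MX2 peaks in 0 of them, with an exact upper bound of 2.25%. In the 620 exons of 37 to 54 bases the counts were 12 and 14. At 55 to 81 bases, 6.62% of triple-helix exons had an HL60 peak (3.07 to 12.2), against 1.77% of such exons in other genes. The HL60/MX2 values there were 2.94% (0.807 to 7.36) and 1.91%. At the other lengths up to 108 bases, the triple-helix interval held the value of other genes in each line.

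**Figure D2:**
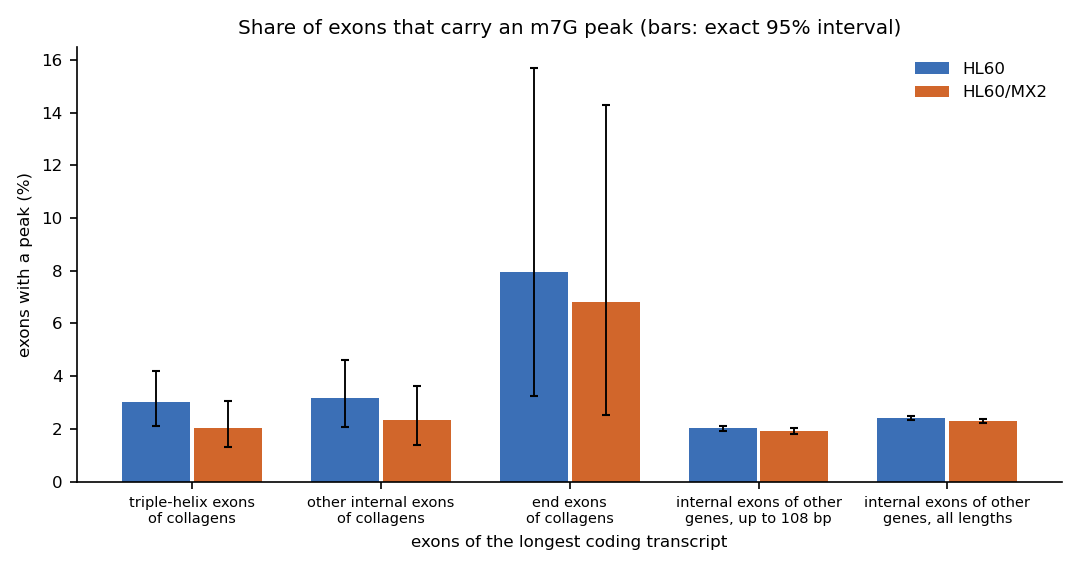
Percentage of exons with an m7G peak (vertical axis) for 3 classes of collagen exon and for internal exons of other genes (horizontal axis), blue for HL60 and orange for HL60/MX2, with exact 95% intervals. Triple-helix exons (3.03% and 2.05%) stand near the internal exons of other genes, and end exons (7.95% and 6.82%) stand higher with wide intervals.

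Within the fibrillar collagens, 9 of 12 peaks in HL60 cells and 13 of 20 in HL60/MX2 cells lay in triple-helix exons, which are 78.9% of fibrillar exons. End exons held 3 peaks in each line, and other internal exons 0 and 4. In the other collagens triple-helix exons held 25 of 55 and 10 of 28 placed peaks. A peak lay in 4.09% of the triple-helix exons of the other collagens in HL60 (2.67 to 5.98) and in 1.76% of those of fibrillar collagens (0.807 to 3.31). The corresponding values in HL60/MX2 were 1.64% (0.788 to 2.99) and 2.54% (1.36 to 4.30), so the order was opposite there, with intervals that overlapped in each line.

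End-exon peaks were few. In HL60 they lay in the first exon of COL3A1 (355), a fibril chain of skin and vessels, and of COL4A2 (779), and in the last exon of COL12A1, COL15A1, COL1A2, COL27A1 and COL6A6. In HL60/MX2 they lay in the first exon of COL5A2 (861) and in the last exon of COL11A2, COL1A1, COL21A1, COL4A4 and COL9A2. No gene appeared in both sets, but only 7 (HL60) and 6 (HL60/MX2) of the 88 end exons held a peak, too few to read this as a trait. Each peak was counted in the region that held most of its bases. The coding sequence held 57 (82.6%) of the HL60 and 43 (86%) of the HL60/MX2 collagen peaks, while 5 in each line fell in the 3′ UTR. The 5′ UTR held 5 HL60 peaks, which were those of COL3A1 and COL4A2, 2 in COL8A1 and 1 in COL12A1. No HL60/MX2 peak was counted there, but the COL5A2 peak, with 97 of its 163 bases coding, reached into the 5′ UTR. Exons of other transcripts alone were touched by both COL10A1 peaks of HL60, and by a single-base peak of COL6A2 and the long COL28A1 peak of HL60/MX2.

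**Figure D3:**
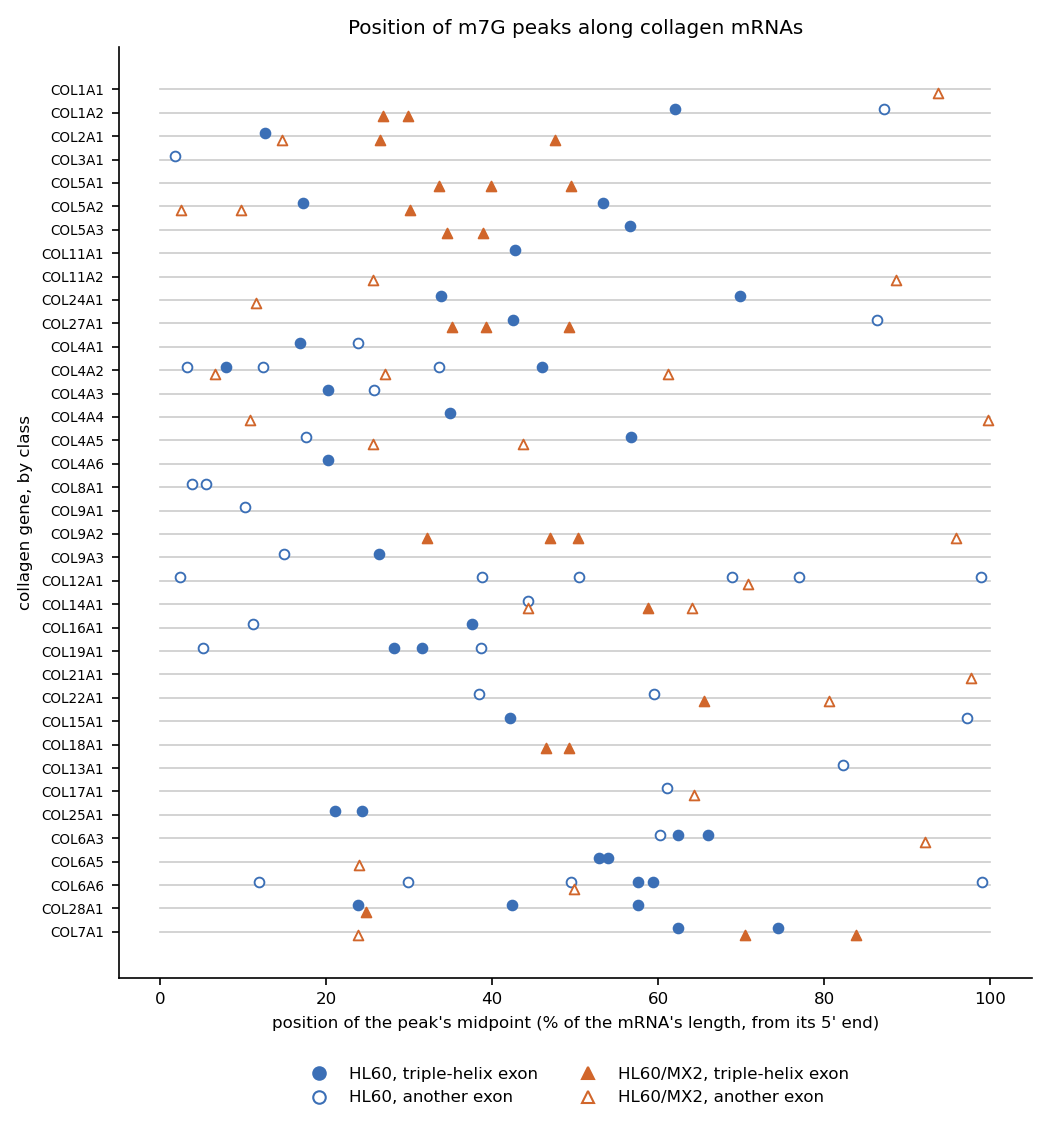
Position of each collagen peak as a percentage of the length of its mRNA from the 5′ end (horizontal axis), 1 line per gene in order of class, with circles for HL60 and triangles for HL60/MX2, filled for triple-helix exons. In both lines the peaks spread along the coding part, and in COL6A6 and COL14A1 a peak of each line overlaps.

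Along the mRNA, 16, 18 and 17 of the 67 HL60 peaks had their midpoint in the stretches from 0 to 20%, 20 to 40% and 40 to 60% of its length, and 10 and 6 in the stretches after that. For the 48 HL60/MX2 peaks the counts were 6, 17, 11, 6 and 8.

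Collagen peaks were shorter than those of the lists as a whole, and more of them ended at an exon end. Their median length was 62 bases in HL60 and 67 in HL60/MX2, against 129 and 133 for the whole lists. A whole exon was covered by 31 peaks in HL60 (44.9%) and by 20 in HL60/MX2 (40%), where 21.2% and 20.1% of all peaks covered one. At least 1 end of the peak was an end of its exon in 88.4% and 86% of collagen peaks, against 56.6% and 56.4% of all peaks. The part of the authors' selection by exon in these ends and lengths was not tested. The peak length was a multiple of 9 in 30.4% and 36% of collagen peaks, against 10.9% and 11% of the lists. Of the 46 peaks of exactly 54 bases in the whole HL60/MX2 list, 9 were collagen peaks, and of the 50 in the HL60 list 2 were.

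Peaks below 50 bases made up 43.5% of the collagen peaks in HL60 and 24% in HL60/MX2, against 17.0% and 16% of the lists. Of the 34 HL60 peaks in triple-helix exons, 22 were that short. Without such peaks 39 collagen peaks were left in HL60 and 38 in HL60/MX2. The share in triple-helix exons was then 31.6% in HL60 and 40.5% in HL60/MX2.

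**Figure D4:**
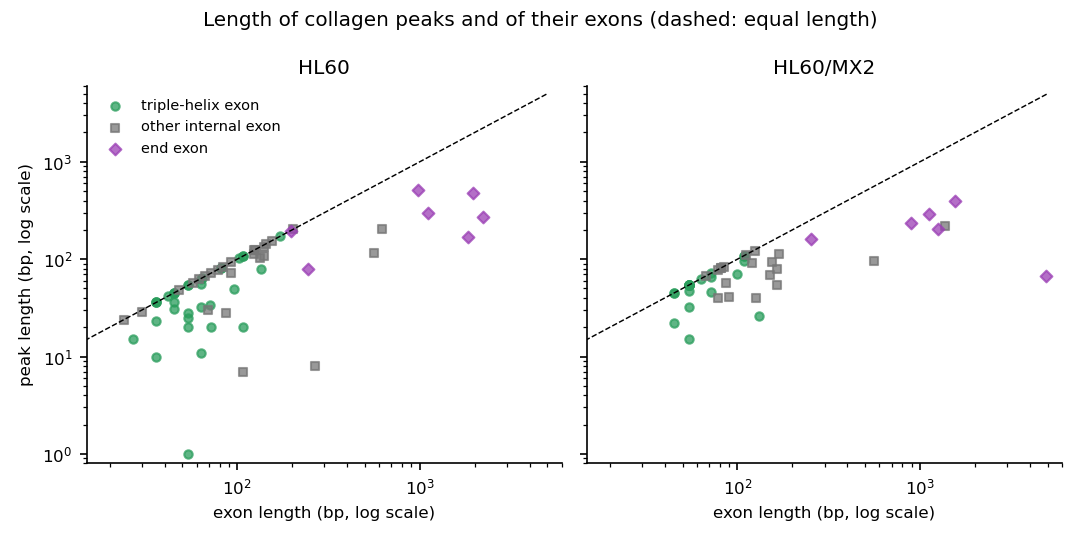
Length of each collagen peak (vertical axis, bp, log scale) against the length of its exon (horizontal axis, bp, log scale) for HL60 (left) and HL60/MX2 (right), by exon class, with a dashed line where they are equal. Many triple-helix and other internal peaks lie on the line, and peaks of last exons lie far below it.

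In HL60 the scores of collagen peaks ran from 51.4 to 1094 with a median of 211 (162 to 283), beside 197 for the list. In HL60/MX2 they ran from 62.1 to 3100 with a median of 355 (246 to 423), beside 259.7. At or above the list's median lay 39 of 69 (56.5%, 44 to 68.4) and 32 of 50 (64%, 49.2 to 77.1), and both intervals held 50%. The highest HL60 score, 1094, was that of exon 17 of COL25A1, a membrane collagen of neurons. The highest HL60/MX2 score, 3100, was that of exon 49 of COL17A1, the hemidesmosome collagen of skin. It is also the highest score in that list, where 53 peaks share it. After it came COL7A1 (1690), COL2A1 (1321), COL9A2 (968), COL1A2 (936), COL5A2 (861) and COL22A1 (810).

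Fibrillar peaks had a median of 169 in HL60 (107 to 302), with 4 of 12 at or above the median of the list, and the other collagens 218 (166 to 310.4). In HL60/MX2 the medians were 355 (223 to 579) and 357 (246 to 414). By exon class, triple-helix peaks had medians of 194 and 232, end-exon peaks 222 and 288, and other internal peaks 211 and 362. In HL60/MX2, 16 of the 19 other internal peaks (84.2%, 60.4 to 96.6) and 11 of the 23 triple-helix peaks (47.8%, 26.8 to 69.4) stood at or above the median of the list.

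**Figure D5:**
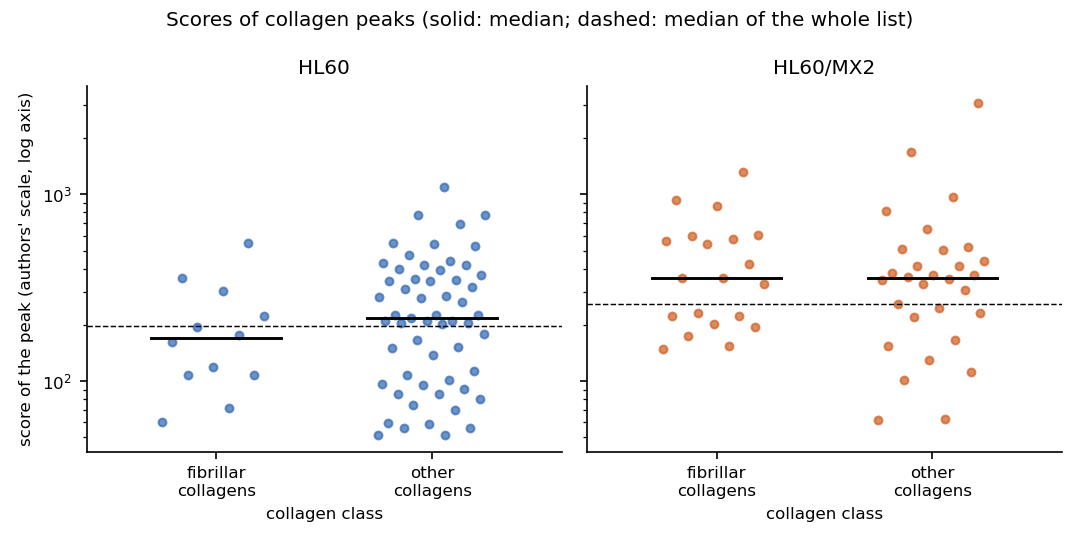
Score of each collagen peak (vertical axis, authors' scale, log axis) for fibrillar and other collagens (horizontal axis) in HL60 (left) and HL60/MX2 (right), with a solid line at the median of each group and a dashed line at the median of the whole list. In HL60 the fibrillar median (169) lies below the dashed line (197), and in HL60/MX2 both medians (355 and 357) lie above it (259.7).

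Only 2 collagen peaks overlapped a peak of the other line by at least 1 base, 2.90% of the HL60 collagen peaks (0.353 to 10.1) and 4% of those of HL60/MX2 (0.488 to 13.7). In the whole lists 6.13% and 6.09% did so, which both intervals held. The COL6A6 pair printed above overlapped by 93 bases, with scores of 429 in HL60 and 306 in HL60/MX2. The COL14A1 pair overlapped by 121 bases of exon 27, chr8:121290350-121290470 on the plus strand, with scores of 55.9 and 439. Neither exon is a triple-helix exon, and no triple-helix exon held a peak in both lines. A peak lay in only 3.03% (HL60) and 2.05% (HL60/MX2) of the triple-helix exons, so the lack of one with both does not set them apart.

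Where both lines had a peak in a collagen gene, the nearest peaks usually lay far apart. The median distance from an HL60 peak to the nearest HL60/MX2 peak of that gene was 1040 nt along the mRNA, and from HL60/MX2 to HL60 872 nt. Within 200 nt lay 6 pairs, the overlapping ones among them. Neighbouring exons held the peaks in COL28A1 (exons 8 and 9, 42 nt between midpoints), COL4A2 (exons 5 and 4, 80 nt) and COL2A1 (exons 7 and 8, 109 nt). In COL17A1 the peaks lay in exons 47 and 49, 176 nt apart.

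Sequence within the triple-helix exons was compared with that of the 1066 such exons without a peak in either line, of the same median length. GGAAA or GGAAG, read on the strand of the gene only, was found in 26.5% (12.9 to 44.4) of the exons with an HL60 peak, 34.8% (16.4 to 57.3) of those with an HL60/MX2 peak and 27.6% of those with none. CTGGA or CTGGG or CTGTA or CTGTG, which can overlap the former in CTGGAAA, was found in 64.7% (46.5 to 80.3), 56.5% (34.5 to 76.8) and 55%. Both intervals held the value of the exons without a peak for each motif. Of the glycine codons, GGA made up 35.3% (29.4 to 41.6) in HL60, 25.6% (19.3 to 32.7) in HL60/MX2 and 34.6% in exons with no peak. These intervals count each codon as a separate draw, although the codons came from 34 and 23 exons. They are therefore too narrow, and no difference in codons is drawn from them. The share of GGT was 23.8% in HL60, 27.8% in HL60/MX2 and 28.0% without a peak. GGC made up 22.6%, 26.7% and 22.2%, and GGG 18.3%, 19.9% and 15.2%.

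Genes that make, bind or break down collagen were counted from lists chosen with earlier results of these data known. Of 33 genes for the making of collagen, 8 carried peaks in HL60 (24.2%, 11.1 to 42.3) and 13 did in HL60/MX2 (39.4%, 22.9 to 57.9), intervals that held the 26.5% and 28.6% of all genes. ADAMTS3, which trims the ends of procollagen, had 3 in HL60/MX2 (365, 1012 and 522) and none in HL60. PLOD2, a lysyl hydroxylase, had 2 in HL60 (169 and 319) and none in HL60/MX2, and TMEM38B, an ion channel of the endoplasmic reticulum, had 2 in each. SERPINH1, the collagen chaperone, and the crosslinking enzyme LOX had none. Of 12 receptors, 6 had a peak in HL60 (50%, 21.1 to 78.9) and 4 in HL60/MX2 (33.3%, 9.92 to 65.1). The integrin genes ITGA1 and ITGA11 had 3 and 2 in HL60 and none in HL60/MX2, and ITGA2 had 2 in HL60/MX2 alone. Of 7 genes of breakdown, 1 had a peak in HL60 (14.3%, 0.361 to 57.9) and 3 in HL60/MX2 (42.9%, 9.90 to 81.6). They were MMP8 in HL60 (score 335), and MMP1 (209), MMP2 (181) and CTSK (1521) in HL60/MX2. Of 22 proteins with a collagen-like stretch but no COL symbol, 10 had a peak in HL60 (45.5%, 24.4 to 67.8) and 6 in HL60/MX2 (27.3%, 10.7 to 50.2). Among them was MSR1, the macrophage scavenger receptor, with 2 in each. The intervals for receptors, breakdown and collagen-like proteins also held the shares of all genes, so none of these lists stood apart in either line.

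Markers of myeloid cells and of fibroblasts were counted in the same way. Of 8 myeloid markers, 1 had a peak in HL60 (12.5%, 0.316 to 52.7) and 3 in HL60/MX2 (37.5%, 8.52 to 75.5), and both intervals held the share of all genes (26.5% and 28.6%). CTSG had its peak in HL60, CD33, CSF3R and ITGAM had 1 each in HL60/MX2, and MPO, ELANE, PRTN3 and AZU1 had none. Of 9 fibroblast markers, 3 of them collagens, 5 had a peak in HL60 (55.6%, 21.2 to 86.3) and 7 did in HL60/MX2 (77.8%, 40.0 to 97.2). Against all genes, the interval held the share in HL60 (26.5%) and lay above it in HL60/MX2 (28.6%). These markers have a median of 23 exons, and their intervals held the 59.1% and 61.7% of genes with 30 or more exons, which are larger. FN1 had 4 peaks in HL60 and 1 in HL60/MX2. Peak lists show where enrichment was called and not how much RNA a gene made, and the part of expression in the collagen counts was not tested.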

How the data were processed

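Per the methods, the authors used Cutadapt 1.9.3 to trim the read pairs and aligned them to hg19 with HISAT2 2.0.4. They called peaks with MACS, whose version and settings are not given in the sources used here. In-house scripts then selected peaks that overlapped protein-coding exons, and whether peaks were cut at exon ends is not stated. The deposited lists hold, for each peak, its position, strand and score, whose scale is not named, and no read counts, so depth is unknown. Of the 4 libraries, the 2 inputs were not analysed here. Starts were counted from 1, and the build was checked by the length of chromosome 1 (249250621 bp). Genes came from GENCODE release 44 placed on hg19. Ties in overlap went to the gene with fewer exon bases. Exons were those of the transcript with the longest coding sequence, and triple-helix exons needed at least 3 glycine positions. That transcript of COL26A1, which had no peak, did not start in frame. Shares have Clopper-Pearson and rates and ratios exact 95% intervals, and intervals of medians use binomial ranks. All collagens with a peak were named, and those with 3 or more peaks, a shared peak or the highest score of a list were described in full. The genes and lists were chosen with earlier results of these data known. Alternatives covered score, peak length, assignment, overlap and exon classes. Steps were tested on simulated data and used Python 3.11.15, numpy 2.4.6, scipy 1.17.1, pysam 0.24.0, samtools 1.23.1 and matplotlib 3.10.9.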

Additional observations from a re-analysis of the deposited data

How the results depend on the processing

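No paired analysis was possible because each cell line had 1 enriched library and no result came from a test across samples. With scores at or above the list's median, the collagen peaks numbered 39 in HL60 and 32 in HL60/MX2, and 1 shared peak was left in each. With peaks of at least 50 bases, HL60 had 39 collagen peaks, 0.0955 per kb, with 31.6% of the placed ones in triple-helix exons. HL60/MX2 then had 38, 0.0930 per kb, with 40.5% in triple-helix exons. Under that limit 23 collagen genes had a peak in each line. The higher peak and gene counts of HL60 were thus hardly seen among these peaks, and its triple-helix share was the lower one. On the longest coding transcript alone, the rates were 0.244 and 0.175 per kb, since fewer bases are counted. The median of the highest score per gene was 296 in HL60. The 34 remaining values obtained under alternatives, those of HL60/MX2 at 50 bases among them, stayed within the interval of the value as reported or within 1.5 times a count. Fibrillar over other collagens, with peaks of at least 50 bases (added after seeing the data), was 0.688 (0.256 to 1.59) in HL60 and 2.29 (1.12 to 4.56) in HL60/MX2. The small number of peaks, the unknown depth and the lack of replicates limit each comparison, and a difference between the lists cannot be told apart from a difference between 2 libraries.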
